A study of Mus musculus with 2 samples.

Results

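The 8 solute carrier families that hold most known amino acid and peptide carriers of the plasma membrane and lysosome (Slc1, Slc3, Slc6, Slc7, Slc15, Slc36, Slc38 and Slc43) were read out in effector regulatory T cells (effector Treg cells) with and without a functional copy of Nrn1. Members were the protein-coding rows whose symbols carry these family names, 67 of 46511 gene rows, of which 66 encode carriers and 1, Slc7a6os, carries the name of its neighbour only. RNA came from sorted mouse cells on a C57BL/6 background, with 1 library from Nrn1+/- mice (the heterozygous library) and 1 library from Nrn1-/- mice (the null library). Both groups also carried the Foxp3DTRgfp allele, which places green fluorescent protein under Foxp3, and both were sorted as CD4+ and CD25+ cells that were Foxp3gfp+, low for Cd62L and high for CD44. The control library is titled wild type, but its genotype label reads Nrn1+/-, so the contrast is heterozygous against null. The age of the mice and their number per library were not given in the sources used here.

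T cells take up amino acids through carriers whose abundance rises with activation, and the uptake of leucine and glutamine feeds protein synthesis and the mTORC1 kinase. Exchangers of the Slc7 family work as heteromers, in which a light chain moves the substrate and the heavy chain Slc3a2 (CD98) brings it to the cell surface. Carriers of the Slc1, Slc6 and Slc38 families are driven mostly by sodium, whereas Slc15 and Slc36 carriers are driven mostly by protons and several of them sit in the lysosome.

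Values are FPKM, that is, fragments counted per kilobase of transcript and scaled to depth. Nrn1 was at 66.5 FPKM in the heterozygous library and 4.62 FPKM in the null library. All 6 regulatory T cell markers were present, and their summed level was 1762 and 1515 FPKM. Each of the 6 was lower in the null library by less than 1.5-fold, where 45.7% of protein-coding genes were lower by any amount. Foxp3 was at 257 and 195 FPKM and Ikzf2 at 72.8 and 54.4 FPKM. All 6 also stayed lower under the 4 other scalings described below. With each library rescaled to a sum of 1000000, 3 of the 6 were at least 1.5-fold lower, beside 15.3% of protein-coding genes. Markers of dividing cells were higher in the null library for 10 of 10 genes (summed level 412 against 1005 FPKM), each by at least 1.5-fold. Of all protein-coding genes compared, 7.01% were higher by that much. Marker lists of other cells were low. The 7 B cell markers summed to 6.21 and 8.38 FPKM, the 6 myeloid markers to 1.47 and 1.79 FPKM, the 5 dendritic cell markers to 2.96 and 2.38 FPKM with Siglech listed at 0 in both libraries, the 5 CD8 T and NK cell markers to 9.84 and 8.65 FPKM and the 4 globin genes to 0.177 and 0.0438 FPKM. The part that division or other cells play in the carrier values was not tested. In bulk RNA, fewer cells that express a gene and less RNA per cell cannot be told apart.

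Of the 67 members, 25 had a mean of at least 1 FPKM, and 42 did not. Log2 ratios of the null over the heterozygous library were computed after adding 1 FPKM to each value, and a gene was called when that ratio reached 1.5-fold. With 1 library per genotype there is no replicate check, no test was made and the calls are thresholds of size. Slc43a3 was called higher, 1 of 25 members, where 7.01% of 10695 protein-coding genes were. Slc7a3, Slc6a9, Slc15a2 and Slc1a4 were called lower, 4 of 25 members, where 3.69% of protein-coding genes were. In either direction 5 of 25 members were called beside 10.7% of protein-coding genes. At 2-fold, the first 3 of the lower genes remained, where 0.262% of protein-coding genes were 2-fold lower, and no member was 2-fold higher, where 1.21% were. Without a threshold 11 members were higher, beside 54.3% of protein-coding genes, and 14 were lower, beside 45.7%. The median log2 ratio was -0.04 over the members and 0.04 over protein-coding genes. For the 151 other solute carrier genes at that level, 7 were called higher and 5 lower, with a median of 0.06.

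**Figure D1:**
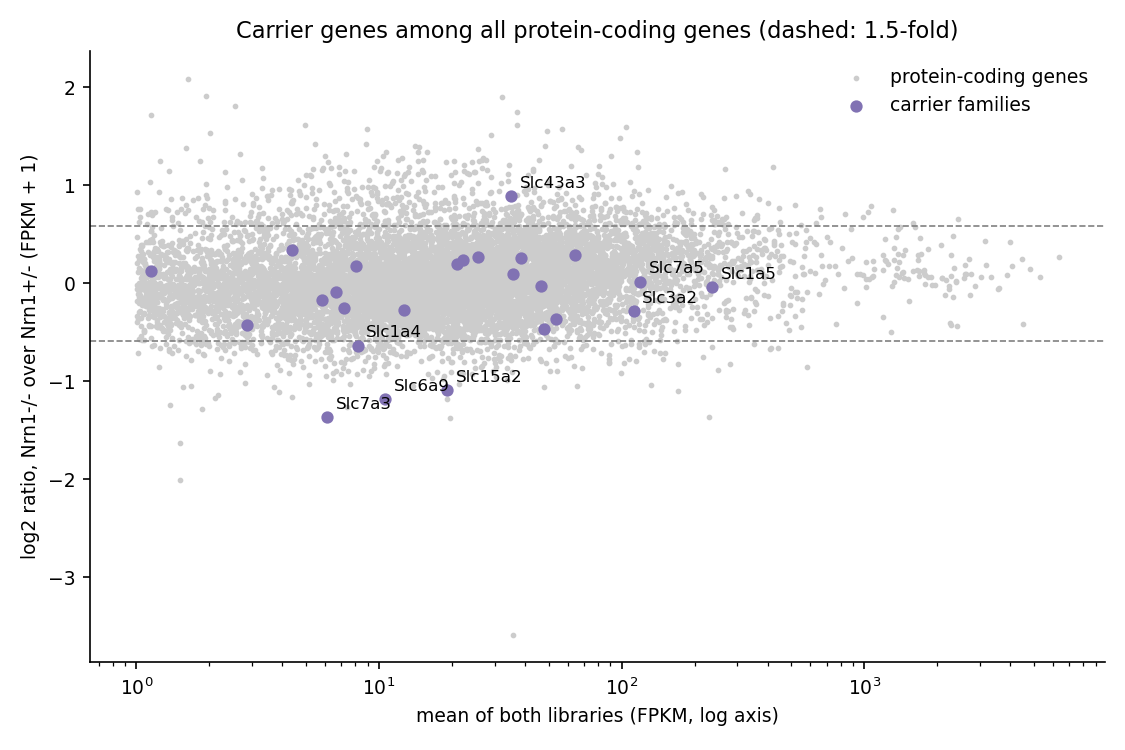
Log2 ratio of the Nrn1-/- over the Nrn1+/- library (FPKM + 1, vertical axis) against the mean FPKM of both libraries (horizontal log axis), with 10695 protein-coding genes in grey and the 25 members in purple. Dashed lines mark 1.5-fold: Slc43a3 lies above the upper line, and Slc1a4, Slc15a2, Slc6a9 and Slc7a3 lie below the lower line.

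These shares depend on how the libraries are scaled to each other, which the deposited values do not show. Upper-quartile scaling moved the log2 ratios of all genes tested by a median of -0.12, and rescaling each library to a sum of 1000000 moved them by -0.28. Members then split into 9 higher and 16 lower, and into 3 higher and 24 lower. Members called lower went to 5 of 25 beside 7.10% of protein-coding genes with upper-quartile scaling, and to 7 of 27 beside 15.3% at a sum of 1000000. The 5 genes called as deposited stayed called in the same direction under all 4 scalings tried. The sign of the ratio held under these scalings for 17 of 25 members, and the 8 that flipped under at least 1 were Slc7a5, Slc7a6, Slc7a6os, Slc15a3, Slc15a4, Slc38a1, Slc6a6 and Slc6a8.

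**Figure D2:**
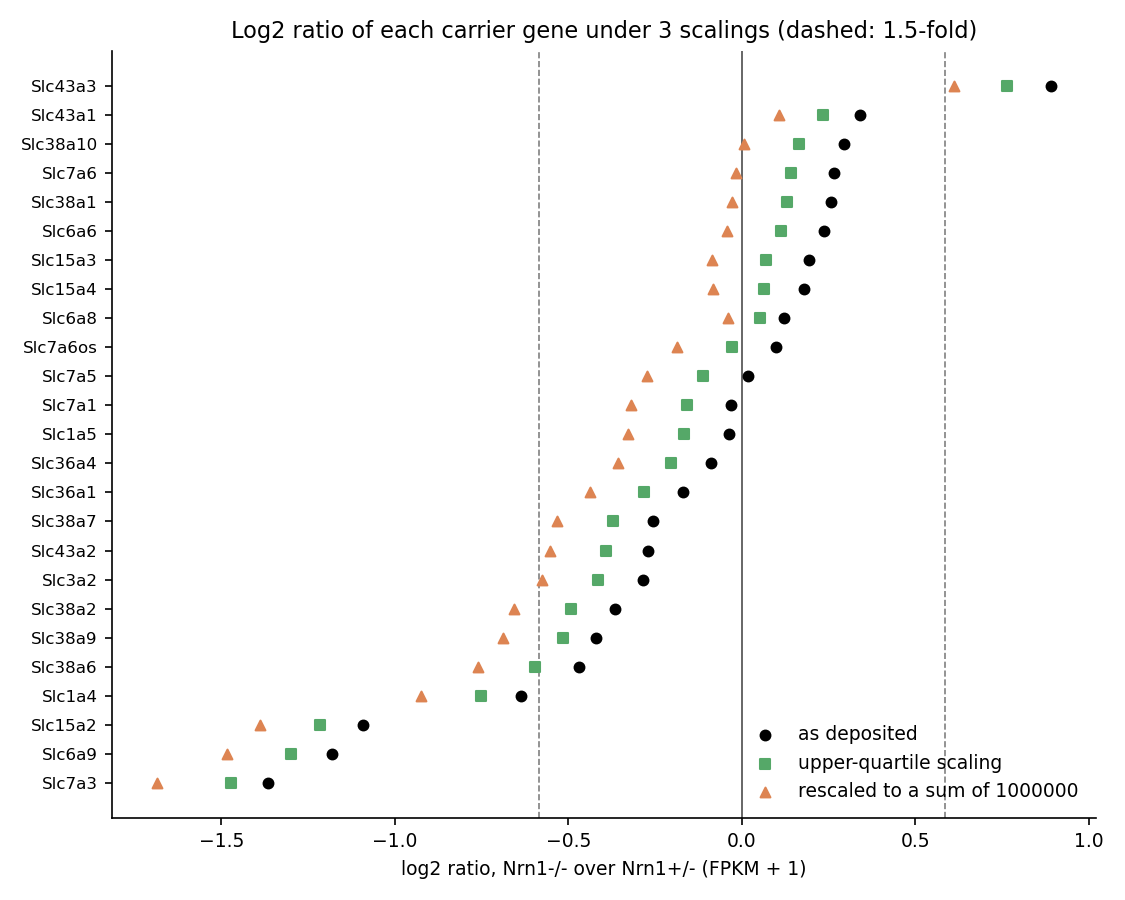
Log2 ratio of the Nrn1-/- over the Nrn1+/- library (FPKM + 1) for each of the 25 members, as deposited (circles), with upper-quartile scaling (squares) and with each library rescaled to a sum of 1000000 (triangles). Dashed lines mark 1.5-fold; the 4 lowest genes and Slc43a3 stay beyond them in all 3, while Slc7a5 crosses from 0.02 to -0.11 and -0.27.

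The carrier message was concentrated in few genes. The members summed to 975 FPKM in the heterozygous library and 937 FPKM in the null library, which was 0.164% and 0.145% of all protein-coding FPKM. Without Slc7a6os, which is not a carrier, the sums were 941 and 900 FPKM. Slc1a5, Slc7a5 and Slc3a2 made up 49.4% and 48.6% of the sums of all members. They were the 3 members with a mean above 100 FPKM, while 13 lay between 10 and 100 FPKM and 9 between 1 and 10 FPKM. Slc1a5 stood above 97.1% of the protein-coding genes tested in the heterozygous library, and Slc6a8, the creatine carrier, above 1.16%.

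**Figure D3:**
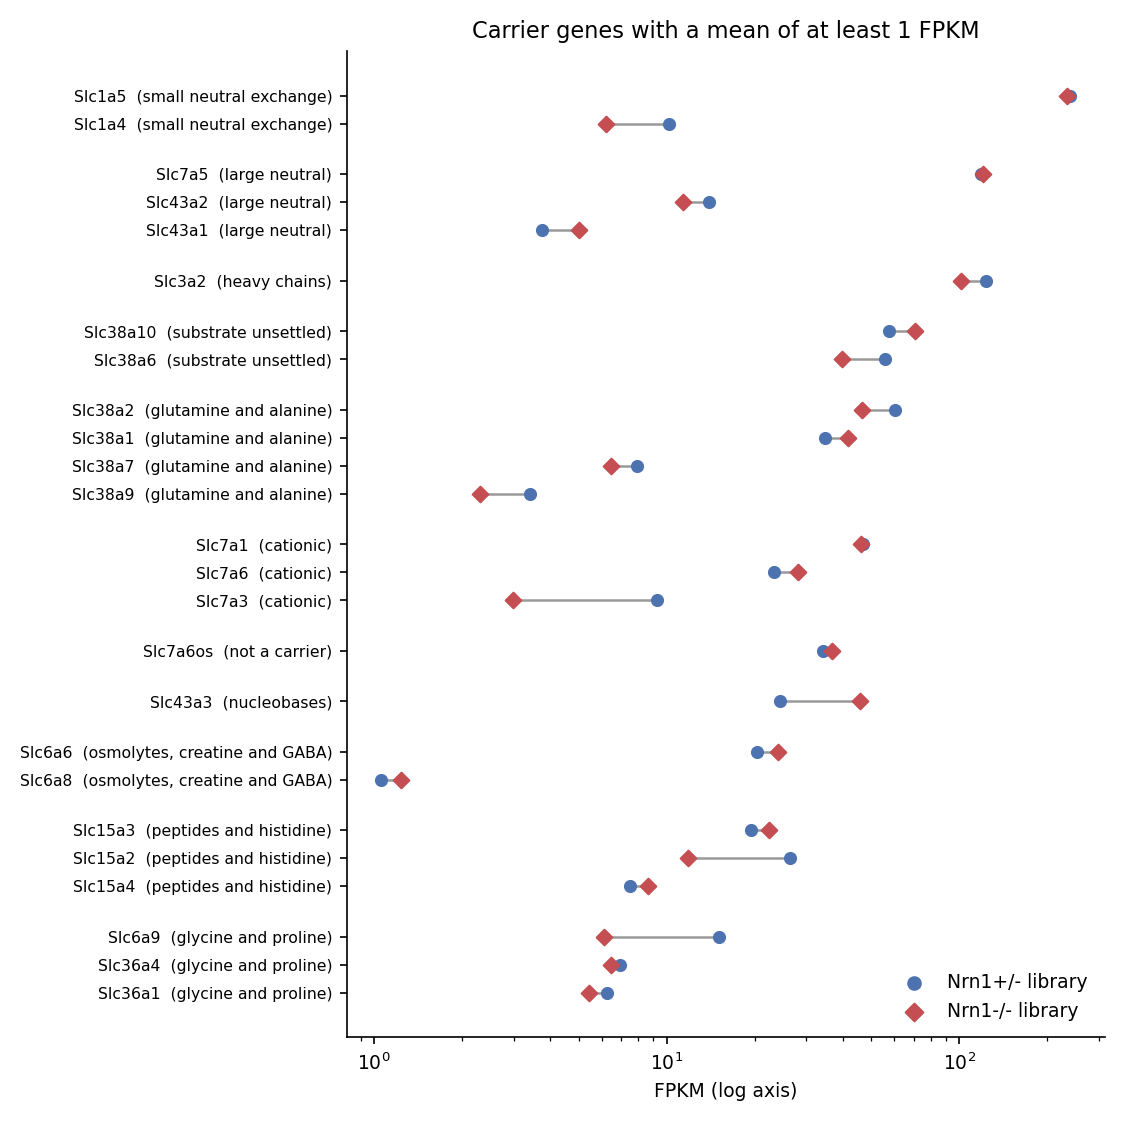
FPKM on a log axis of the 25 members with a mean of at least 1 FPKM in the Nrn1+/- library (blue circles) and the Nrn1-/- library (red diamonds), grouped by substrate class. The widest gaps are those of Slc7a3 (9.25 against 2.98 FPKM), Slc6a9 (15.1 against 6.12 FPKM) and Slc15a2 (26.4 against 11.8 FPKM), while the points of Slc1a5, Slc7a5 and Slc7a1 nearly coincide.

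By family, summed levels fell into 3 tiers. Slc1 (250 against 241 FPKM), Slc7 (235 against 237 FPKM) and Slc38 (220 against 208 FPKM) formed the highest. The Slc7 sum includes Slc7a6os, which is not a carrier, at 34.3 and 36.8 FPKM. Without it Slc7 would rank below Slc38 and be slightly lower in the null library. Slc3 stood at 124 against 101 FPKM. The lowest tier held Slc15 (53.4 against 42.9 FPKM), Slc43 (42.04 against 62.3 FPKM), Slc6 (37.3 against 32.2 FPKM) and Slc36 (13.3 against 12.1 FPKM). Slc43 had the highest ratio of sums, 1.48, and Slc15 the lowest, 0.804. Rescaling to a sum of 1000000 brought these to 1.21 and 0.656, and it brought Slc7 from 1.01 to 0.822. Family sums hide opposite members as deposited: Slc15, Slc38, Slc43, Slc6 and Slc7 each held genes higher and genes lower in the null library. This depended on scaling. At a sum of 1000000, every Slc15, Slc6 and Slc7 member with a mean of at least 1 FPKM was lower. In Slc38 only Slc38a10 stayed higher, at a log2 ratio of 0.005, and Slc43 kept members in both directions.

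Heavy chains and their partners were read together, because each heteromer needs both. Slc3a2, the heavy chain of CD98 (GRCm38 chromosome 19, 8706882 to 8723369, minus strand), was at 124 FPKM in the heterozygous library and 101 FPKM in the null library, 1.22-fold lower. A counting interval was estimated for each ratio from the spacing of low FPKM values and the length of the principal annotated transcript. It covers counting error only, and for Slc3a2 it ran from 1.18 to 1.25-fold lower. Slc3a1, the heavy chain of the kidney and gut cystine carrier, was at 0.401 and 0.143 FPKM. Among the 6 light chains that pair with Slc3a2, Slc7a5 (LAT1, the main carrier of leucine and other large neutral amino acids) was at 119 and 120 FPKM. The ratio of Slc7a5 had a counting interval of 0.995 to 1.04, which includes equality. Slc7a6 (y+LAT2, an exchanger of arginine for glutamine) was at 23.2 and 28.1 FPKM.

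The other light chains were at a low level. Slc7a7 (y+LAT1) was at 0.705 and 0.776 FPKM and Slc7a10 (Asc-1, a carrier of small neutral amino acids) at 1.11 and 0.646 FPKM. Slc7a8 (LAT2) was at 0.0499 and 0.118 FPKM, and Slc7a11 (xCT, the cystine and glutamate exchanger) at 0.187 and 0.147 FPKM. Slc7a5 and Slc7a6 made up 98.6% and 98.9% of the light chain sum. That sum was 144 FPKM in the heterozygous library and 150 FPKM in the null library, so light chain over heavy chain message, per length, went from 1.16 to 1.48. A ratio within a library does not depend on the scaling between libraries.

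**Figure D4:**
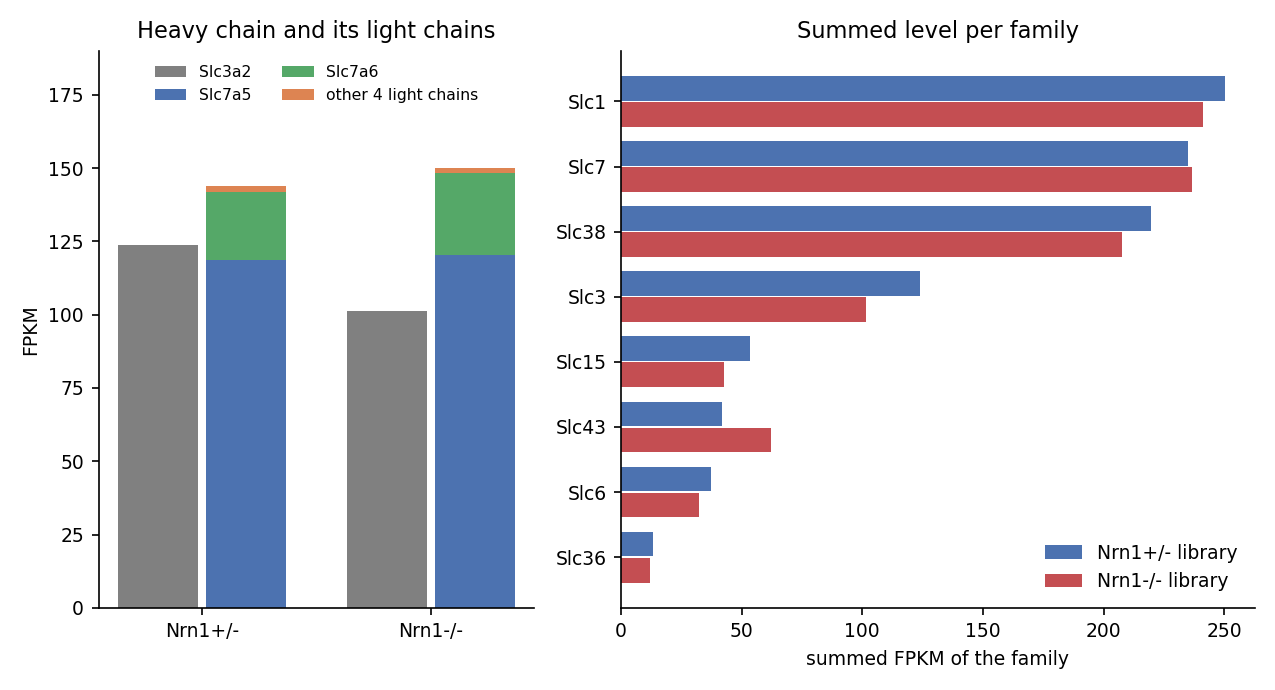
Left, FPKM of the heavy chain Slc3a2 (grey) beside the stacked FPKM of its 6 light chains (Slc7a5 blue, Slc7a6 green, the other 4 orange) in each library. Right, summed FPKM of each family in the Nrn1+/- library (blue) and the Nrn1-/- library (red), where the Slc7 sum includes Slc7a6os. Slc3a2 is lower at 101 against 124 FPKM while the light chain stack is at 150 against 144 FPKM.

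Among carriers of cationic amino acids, the lower-level gene Slc7a3 was called and the main one, Slc7a1, did not pass the threshold. Slc7a3 (CAT3, GRCm38 chromosome X, 101079210 to 101086020, minus strand) imports arginine and lysine. It was at 9.25 FPKM in the heterozygous library and 2.98 FPKM in the null library, 3.11-fold lower with a counting interval of 2.73 to 3.53. This log2 ratio of -1.37 was the lowest of the members. Slc7a1 (CAT1), which carries the same substrates, was at 47.03 and 46.02 FPKM, and the interval of its ratio, 0.958 to 1.003, included equality. The level of Slc7a1 was thus 5.09 times that of Slc7a3 in the heterozygous library and 15.5 times in the null library. Slc7a2 (CAT2) was at 0.0319 and 0.0169 FPKM, and Slc7a9, the light chain of the kidney cystine carrier, was listed at 0 in both libraries. The summed level of the 6 cationic carriers was 80.2 and 77.9 FPKM. That sum includes the light chains Slc7a6 (23.2 and 28.1 FPKM) and Slc7a7 (0.705 and 0.776 FPKM).

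Carriers of large neutral amino acids differed little as a sum, at 136 and 137 FPKM. Slc43a1 (LAT3) was at 3.74 and 5.00 FPKM and Slc43a2 (LAT4) at 14.0 and 11.4 FPKM, facilitators that differed in opposite directions and by less than 1.5-fold. Slc43a3, of the same family but known as a carrier of purine nucleobases, was at 24.3 FPKM in the heterozygous library and 45.9 FPKM in the null library, 1.89-fold higher with a counting interval of 1.81 to 1.99. It lies 73.0 kb from Slc43a1 on GRCm38 chromosome 2 (84936579 to 84958509, plus strand). Slc43a3 was the member with the highest log2 ratio (0.89) among those at this level, and it kept 0.61 after rescaling to a sum of 1000000. Dividing cell markers were higher in the same library, and any link between them and Slc43a3 was not tested.

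Among exchangers of small neutral amino acids, the abundant gene differed little and its lower-level relative was called. Slc1a5 (ASCT2, the glutamine exchanger, GRCm38 chromosome 7, 16781340 to 16798274, plus strand) was at 240 and 234 FPKM, a ratio of 0.975 with a counting interval of 0.963 to 0.996. Slc1a4 (ASCT1, an exchanger of alanine, serine, cysteine and threonine, GRCm38 chromosome 11, 20302180 to 20332713, minus strand) was at 10.2 FPKM in the heterozygous library and 6.18 FPKM in the null library. That was 1.65-fold lower, with a counting interval of 1.52 to 1.78. Slc1a5 was 23.6 times the level of Slc1a4 in the first library and 37.8 times in the second. Slc7a12 was listed at 0 in both.

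Carriers of glutamine and alanine in the Slc38 family were higher and lower within one locus as deposited. Slc38a1 (SNAT1) and Slc38a2 (SNAT2), sodium-coupled importers, are 44.5 kb apart on GRCm38 chromosome 15. Slc38a1 was at 34.9 FPKM in the heterozygous library and 41.8 FPKM in the null library, while Slc38a2 was at 60.3 and 46.5 FPKM, 1.30-fold lower. Slc38a2 was 1.73 times the level of Slc38a1 in the heterozygous library and 1.11 times in the null library. Neither gene was called as deposited, and the sign of Slc38a1 reversed at a sum of 1000000 (-0.03). The other sodium-coupled importers Slc38a3, Slc38a4, Slc38a5 and Slc38a8 stayed at or under 0.0503 FPKM.

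Of the Slc38 members with unsettled substrates, Slc38a6 was at 55.5 and 39.9 FPKM and Slc38a10 at 57.6 and 70.8 FPKM. The ratio of Slc38a6 (1.39-fold lower) crossed the 1.5-fold threshold with upper-quartile scaling, where its log2 ratio was -0.60. Slc38a11 was at 0.0645 FPKM and listed at 0. Slc7a4 was at 0.364 and 0.855 FPKM, with a counting interval of 1.70 to 3.32 for its ratio, and Slc7a14, Slc7a15, Slc15a5 and Slc36a3 were at or under 0.192 FPKM.

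Carriers of the lysosomal membrane, a grouping made after the values were seen, were below the threshold in both directions. Slc38a9, the arginine sensor that signals to mTORC1, was at 3.42 and 2.30 FPKM, 1.49-fold lower in FPKM. Slc38a7, which exports glutamine and asparagine from the lysosome, was at 7.91 and 6.46 FPKM. The Slc36 carriers Slc36a1 and Slc36a4 were at 6.24 and 5.43 FPKM and at 6.92 and 6.44 FPKM. Slc15a3 and Slc15a4, carriers of histidine and peptides in endosomes and lysosomes, ran the other way, at 19.4 and 22.4 FPKM and at 7.51 and 8.63 FPKM. Their sign reversed after rescaling to a sum of 1000000 (-0.09 and -0.08).

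Peptide uptake at the cell surface is known from Slc15a1 and Slc15a2. Slc15a2 (PEPT2, GRCm38 chromosome 16, 36750177 to 36784962, minus strand) was at 26.4 FPKM in the heterozygous library and 11.8 FPKM in the null library, 2.23-fold lower with a counting interval of 2.11 to 2.35. Slc15a1 (PEPT1) was at 0.0327 and 0.0429 FPKM. Slc15a2 thus held 49.5% of the Slc15 sum in the first library and 27.6% in the second, while Slc15a3 and Slc15a4 together went from 26.9 to 31.0 FPKM. Of the exon bases of Slc15a3, 28.1% are shared with Tmem132a on the opposite strand. Whether counting used strand was not given in the sources used here, and Tmem132a was at 1.25 and 1.73 FPKM.

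Carriers of glycine and proline had the lowest ratio of sums among classes above 1 FPKM, at 28.5 against 18.1 FPKM, and Slc6a9 accounted for most of it. Slc6a9 (GlyT1, the glycine importer, GRCm38 chromosome 4, 117834506 to 117875198, plus strand) was at 15.1 FPKM in the heterozygous library and 6.12 FPKM in the null library. It was 2.47-fold lower with a counting interval of 2.28 to 2.68. Of its exon bases, 30.2% are shared with genes on the opposite strand, mainly Ccdc24, which was at 2.45 and 1.14 FPKM. The part of that overlap in the Slc6a9 values was not tested. Slc6a5, Slc6a7, Slc6a20a, Slc6a20b and Slc36a2 were at or under 0.134 FPKM.

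Most of the remaining Slc6 members were under 1 FPKM. Slc6a6, the taurine carrier, was at 20.3 and 24.1 FPKM, and Slc6a8 at 1.06 and 1.24 FPKM. Slc6a6 exceeded Slc6a9 by 1.34 times in the heterozygous library and by 3.94 times in the null library. Slc6a11, Slc6a12 and Slc6a13, which carry GABA, betaine and taurine, reached at most 0.333 FPKM, the monoamine carriers Slc6a2, Slc6a3 and Slc6a4 at most 0.0592 FPKM and the broad neutral carriers Slc6a14, Slc6a15, Slc6a17, Slc6a18 and Slc6a19 at most 0.185 FPKM.

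Acidic amino acid carriers had no member with a mean of 1 FPKM. Slc1a2 (GLT-1, the main glutamate carrier of astrocytes) was the highest of them, at 0.194 FPKM in the heterozygous library and 1.30 FPKM in the null library. This was 6.70-fold higher, with a counting interval of 5.47 to 8.25. It was left uncalled by the filter on low values and would be the second member called higher without it. Slc1a1, Slc1a3, Slc1a6 and Slc1a7 were at or under 0.128 FPKM, and Slc7a13 was listed at 0 in both libraries. In all, 8 members were listed at 0 in both libraries and 10 in 1 of them.

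A list of 22 genes of the GCN2 and ATF4 pathway was read beside the carriers. GCN2 senses uncharged tRNA, and the pathway is known to induce several of these carriers. Whether the values below reflect amino acid supply or another signal was not tested. Of 21 genes at a mean of 1 FPKM or more, 6 were called lower and none higher, where 3.69% of protein-coding genes were called lower and 7.01% higher. The median log2 ratio was -0.19 beside 0.04 over protein-coding genes. The largest ratios were those of Trib3, a pseudokinase (28.6 against 10.5 FPKM), Nupr1, a chromatin protein induced by stress (10.8 against 3.93 FPKM), and Chac1, which degrades glutathione (10.5 against 4.63 FPKM). Atf4 itself was at 291 and 258 FPKM and Asns, asparagine synthetase, at 76.1 and 58.4 FPKM. Another 7 genes were higher as deposited, none of them called. They included Phgdh (224 against 292 FPKM), Psat1 (148 against 179 FPKM) and Shmt2 (179 against 209 FPKM). The list split into 14 lower and 7 higher genes as deposited, and into 19 and 2 at a sum of 1000000. Under that scaling 15.3% of protein-coding genes were called lower and their median log2 ratio was -0.23.

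Promoter windows of the carriers were searched for the letters of the C/EBP-ATF composite site, TGATGNAA, and of the cyclic AMP response element, TGACGTCA, on both strands. The windows came from RefSeq (GRCm38.p6), cover 250 bases before to 50 after each start, and were matched for 48 of 67 members by symbol. Slc7a3 and Slc43a3 were among those not matched. TGATGNAA was in 5 of 69 member windows and in 3.97% of all 32851 windows, and TGACGTCA was in 1 member window (Slc38a6) and in 1.79% of all. The members with TGATGNAA were Slc1a4, Slc7a7, Slc7a11 and Slc15a5, of which only Slc1a4 had a mean of at least 1 FPKM. The windows of Slc6a9 and Slc15a2 held neither string. The bases before the start of 3 genes that hold a match are printed to show where it lies, in transcript direction with the match in capitals: Slc1a4, the called gene with a composite site; Slc7a11, which holds a pair of them; and Slc38a6. The Slc1a4 stretch (chr11:20332710-20332963, minus strand) ends 4 bases past the start, where its match ends. The Slc7a11 stretch is chr3:50443614-50443863, minus strand, with matches that begin 66 and 47 bases before the start. The Slc38a6 stretch is chr12:73286598-73286847, plus strand.
Slc1a4: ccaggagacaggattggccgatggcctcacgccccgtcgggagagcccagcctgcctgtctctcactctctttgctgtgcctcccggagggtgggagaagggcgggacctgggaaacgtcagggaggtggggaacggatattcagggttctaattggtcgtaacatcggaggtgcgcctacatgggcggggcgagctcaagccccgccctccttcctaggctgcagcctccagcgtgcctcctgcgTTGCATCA
Slc7a11: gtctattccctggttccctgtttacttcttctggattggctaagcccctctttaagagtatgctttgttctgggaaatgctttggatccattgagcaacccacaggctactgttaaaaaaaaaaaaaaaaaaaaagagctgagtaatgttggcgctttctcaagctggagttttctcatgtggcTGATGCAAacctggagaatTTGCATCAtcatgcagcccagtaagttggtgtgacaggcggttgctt
Slc38a6: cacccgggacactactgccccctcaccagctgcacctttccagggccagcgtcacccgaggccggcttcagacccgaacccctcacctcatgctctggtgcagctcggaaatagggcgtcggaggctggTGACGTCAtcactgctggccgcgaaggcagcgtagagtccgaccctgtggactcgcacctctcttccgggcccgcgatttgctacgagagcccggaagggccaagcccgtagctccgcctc

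The genes with these matches were at unlike levels. Slc1a4 was called lower, Slc7a11 was under 0.2 FPKM in both libraries and holds 2 matches, Slc7a7 was under 1 FPKM, and Slc15a5 was listed at 0. A match describes letters in the window and not a bound site.

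The other gene lists differed less or in both directions. Of 14 amino acid carriers outside the 8 families at a mean of 1 FPKM or more, 3 were called higher and 2 lower (median log2 ratio 0.26), beside 7.01% and 3.69% of protein-coding genes. These were Slc25a13, the mitochondrial aspartate and glutamate carrier (6.20 against 11.7 FPKM), Slc16a10, an aromatic amino acid carrier (1.49 against 3.17 FPKM), and Sfxn1, the mitochondrial serine carrier (31.3 against 52.9 FPKM), as well as Sfxn3 (24.6 against 14.1 FPKM) and Ctns, the lysosomal cystine exporter (4.95 against 2.79 FPKM), which were the lower genes. With each library at a sum of 1000000, 7 of the 14 were higher and 7 lower. Under that scaling 1 was called higher and 2 lower, beside 2.57% and 15.3% of protein-coding genes. Of 34 genes of lysosomal amino acid sensing by mTORC1, 1 was called higher and none lower, beside 7.01% and 3.69% of protein-coding genes. It was Fnip2, a folliculin partner (1.21 against 2.42 FPKM), and the median was -0.03. The next largest ratios there were those of B630005N14Rik, listed as Bmt2 in newer names (6.73 against 4.17 FPKM), and Sesn1, a sestrin (22.3 against 14.8 FPKM). With upper-quartile scaling none of the 34 was called higher and 2 lower, beside 4.23% and 7.10% of protein-coding genes. At a sum of 1000000, 2 were higher and 32 lower, with a median of -0.32. None was then called higher and 6 lower, beside 2.57% and 15.3%.

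Of 20 enzymes of glutamine and branched-chain amino acid use, 1 was called higher and 1 lower, a share of 10% that is near the 10.7% of all protein-coding genes. Got2, the mitochondrial aspartate aminotransferase, was at 66.7 against 111 FPKM, and Cth, which makes cysteine, at 11.7 against 6.93 FPKM, while Odc1, the first enzyme of polyamine synthesis, was at 334 against 493 FPKM. The list of carrier trafficking and turnover is not limited to amino acid carriers. Among its 8 genes, 3 were called lower and none higher, beside 3.69% and 7.01% of protein-coding genes. All 3 encode alpha-arrestins, which direct membrane carriers into the cell for turnover: Txnip (130 against 68.3 FPKM), Arrdc4 (7.53 against 4.01 FPKM) and Arrdc3 (7.64 against 4.32 FPKM). Of the 8 genes, 3 were called lower under each of the 4 other scalings too, where the share of protein-coding genes called lower was 15.3% at a sum of 1000000 and 7.10% on the upper-quartile scale. The list's median was near 0 as deposited and -0.27 at a sum of 1000000.

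**Figure D5:**
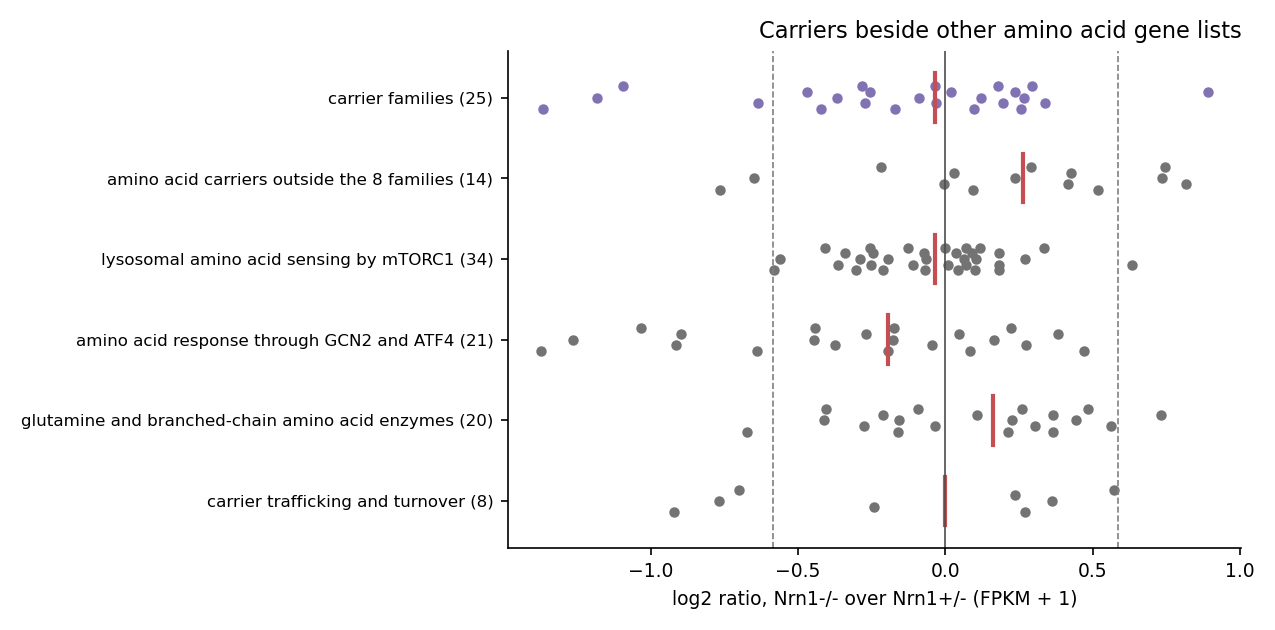
Log2 ratio of the Nrn1-/- over the Nrn1+/- library (FPKM + 1) for the members and for 5 other gene lists. Each point is a gene with a mean of at least 1 FPKM, with their number in brackets. The list of carrier trafficking and turnover is not limited to amino acid carriers. Red bars mark medians and dashed lines 1.5-fold; the GCN2 and ATF4 list has 6 points below the lower line and none above the upper one.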

How the data were processed

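Poly(A) RNA of sorted effector Treg cells was sequenced, with 1 library per genotype, grouped by the genotype labels. The authors deposited FPKM per gene. The unit was read from the values and from the tools named in the submitters' processing notes (Cuffnorm, TopHat, Cuffdiff and FastQC, with the builds mm10 and GRCm38). Annotation, filters, strand setting and any scaling across libraries were not given in the sources used here. Each file held 46511 rows. Rows of 1 symbol were summed, which touched no member. The loci printed in the files can span several genes (that of Slc7a5 does), so positions come from GENCODE M21 on GRCm38.

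Ratios were log2 of FPKM plus a pseudocount of 1, which understates the difference of low genes, over the 10695 protein-coding genes whose mean reached 1 FPKM; folds without "log2" carry no pseudocount. Single-transcript genes gave steps of 0.0192 and 0.0251 FPKM times kilobase per fragment (96.0% and 95.8% of 2218 and 2161 low values within 0.1 of whole multiples). From these, the 25 members at that level rested on an estimated 171 to 31876 and 154 to 23870 fragments, assuming the principal transcript. Counting intervals are exact Clopper-Pearson intervals (95%) of the split of these fragments; they rest on that transcript and on the deposited scaling, and the depth itself is unknown. The arithmetic of the ratios was checked on simulated data, which is no test of any gene. Python 3.11.15, pandas 2.3.3 and scipy 1.17.1 were used.

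Every member with a mean of at least 1 FPKM was named, others above 0.5 FPKM in either library too, and the 3 largest ratios per list. Further low members and list genes, such as Atf4, Asns, Phgdh, Psat1 and Shmt2, were named after their values were seen. Of the low members, 1 is not reported by name here. The members and lists were chosen with earlier results of these data known. Of the list symbols 5 were matched through older names. Protein comparisons between paralogs were not run, as no protein table was used here. Alternatives were another pseudocount, other filters, 4 scalings and a 2-fold threshold.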

Additional observations from a re-analysis of the deposited data

Results flagged for a closer look

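The antisense transcript Slc36a3os, a non-coding row that the comparisons do not use, was at 7.42 FPKM in the heterozygous library and 10.3 FPKM in the null library, above the control level. Slc36a3 itself was at 0.135 and 0.192 FPKM. With 1 library per genotype the difference has no replicate check.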

How the results depend on the processing

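The count of members called lower was 3 to 5 under every alternative run except rescaling to a sum of 1000000, where it was 7. The genes added there were Slc38a2, Slc38a6 and Slc38a9. The count called higher was 1 except with no filter on low values, where it was 2 through Slc1a2, and at 2-fold, where it was 0. The share of protein-coding genes called higher was 7.01% as deposited, 2.57% at a sum of 1000000 and 4.81% with no filter. The share called lower was 3.69%, 15.3% and 2.56% in that order. With upper-quartile scaling these shares were 4.23% and 7.10%. Members counted were 25 as deposited, 27 at a sum of 1000000, 59 with no filter and 22 with a filter at 5 FPKM. The median log2 ratio of members was -0.33 at a sum of 1000000, -0.17 with upper-quartile scaling and -0.16 with protein-coding rows rescaled to the same sum, beside -0.04 as deposited, and these scalings also moved the median of all genes. Leaving out members that share over 10% of their exon bases with another gene (Slc6a9 and Slc15a3 at this level) or leaving out Slc7a6os, both chosen after seeing the data, gave 3 and 4 members called lower. No paired analysis was possible because each genotype has 1 library, and for the same reason no library could be left out. Depth limits most members under 1 FPKM; Slc1a2, on an estimated 115 and 589 fragments, is an exception.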
